A study of Mus musculus with 12 samples.

Results

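The comparison described here sets hippocampal RNA of 5xFAD mice against that of wild type (WT) mice. It takes 6 of the 12 libraries of the series, 3 labelled 5xFAD and 3 labelled WT, chosen by their labels alone, and 16481 of the 54427 listed genes that passed edgeR's default filter on low counts. The other 6 libraries, 3 from mice labelled 5xFAD;Ulk1OV and 3 labelled Ulk1OV (overexpression of the autophagy kinase ULK1), serve only as a second pair of groups that shares no library with the first. The 5xFAD line carries transgenes for mutant human amyloid precursor protein and a mutant human presenilin, driven in neurons by a Thy1 cassette, and forms amyloid plaques early in life. The genotype tag of the 5xFAD mice reads only FADgene, and the sources used here do not give age, strain, sex or the number of animals behind a library.

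Amyloid plaques are surrounded by microglia, the resident macrophages of the brain. Around plaques these cells are known to leave a surveying state and to switch on a set of genes for lipid uptake, lysosomal digestion and chemokines, often called the disease-associated microglial set. Astrocytes nearby become reactive and make more of the filament protein GFAP. In the hippocampus, amyloid mice are also studied for the activity of neurons, seen in genes switched on after firing, and for mitochondrial and autophagy genes.

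Library totals were 17907104 to 18411165 counts in 5xFAD and 16913424 to 18169767 in WT, and levels are given as CPM (counts divided by the scaled library total) with TMM, edgeR's correction for library composition. Defining markers of the hippocampus were present in all 6 libraries. Prox1, of dentate gyrus granule cells, had 68.1, 76.4 and 119 CPM in the 5xFAD libraries, against 57.5, 35.2 and 81.1 CPM in the WT libraries, and Wfs1, of CA1 neurons, had 220.4, 79.9 and 126 CPM in the 5xFAD libraries, against 146, 187 and 152 CPM in the WT libraries. The groups overlapped in both, and a tag of the labels that reads primary cells does not match the hippocampal tissue given elsewhere in them. All 6 libraries had at most 3 counts of Xist, made by female tissue, and 2118 to 2692 of the Y-linked Ddx3y. Replicates differed beyond counting noise, with a chi-square over its degrees of freedom between 7.80 and 25.8. Nothing in the labels says that replicates came from separate animals, so a p-value here reflects library spread that may be technical only.

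In 5xFAD, transcripts of 2 genes rose and 0 fell by the quasi-likelihood test of edgeR, adjusted after Benjamini and Hochberg, at 0.05, which is 0.0121% of the genes tested. They were Prnp, the gene of the prion protein, and Lamr1-ps1, a pseudogene just upstream of it. At an unadjusted p under 0.05 there were 895 genes above 0 (5.43%) and 1176 below 0 (7.14%) by edgeR, and DESeq2, over the 29170 genes with any count, called 188, of which 52 were higher (0.178%) and 136 lower (0.466%). The 29170 include genes of very low counts, while list members below are counted among the 16481. As a baseline for the lists, the 2 DESeq2 shares may therefore be too low. The 2 groups did not overlap in 1778 genes with 5xFAD higher (10.8%) and in 1501 with 5xFAD lower (9.11%). The median log2 fold change over all genes was -0.01, with 8055 genes above 0 and 8426 below. The other genes are given as values, since none of them passed that test. An exact permutation test of 3 libraries against 3 cannot give a two-sided p below 0.1.

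Prnp encodes the prion protein, a glycoprotein anchored in the neuronal membrane (GRCm38 chromosome 2, 131909928 to 131938429, plus strand). Prnp had 2507, 2139.8 and 2374 CPM in the 5xFAD libraries, against 1054, 1117 and 899 CPM in the WT libraries. Every 5xFAD library held more than any WT library, and the groups were far apart. The log2 fold change was 1.18 ± 0.11 (edgeR's SE; adjusted p = 0.0206 by the same test). Without each library in turn it stayed between 1.10 and 1.25, but the adjusted p from edgeR passed 0.05 only without 5xFAD replicate 1 (0.0153). It was 0.0549 without 5xFAD replicate 2, 0.205 without 5xFAD replicate 3, and 0.342, 0.136 and 0.0856 without WT replicates 1, 2 and 3.

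Lamr1-ps1 is a processed pseudogene resembling the laminin receptor and ribosomal protein gene Rpsa (chromosome 2, 131904086 to 131904959, plus strand, 4.97 kb before Prnp). It had 304, 217 and 208 counts in the 5xFAD libraries, against 0, 0 and 0 in the WT libraries. In CPM the 5xFAD libraries held 17.2, 12.2 and 11.5. Set against a floor of 3 counts per library in WT, it was at least 80.1-fold higher in 5xFAD (edgeR adjusted p = 0.00408). The call held without any other library but ended without 5xFAD replicate 2 (edgeR adjusted p = 0.0549). Rpsa, named here after its values were seen, had 612, 697 and 634 CPM in the 5xFAD libraries, against 475, 521 and 510.0 CPM in the WT libraries, with the 5xFAD libraries above the WT libraries. The 2 transcripts were 71.7% identical over 900 aligned positions, gaps included. Whether reads were shared between the gene and the pseudogene was not tested.

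Genes beside the pair had smaller values. Prnd, the doppel gene after Prnp, had 0 counts in all 6 libraries, and Rassf2, 51 kb from Prnp, had a log2 fold change of -0.11 ± 0.10. On the other side 5330413P13Rik stood at 0.07 ± 0.29. The promoter of Prnp is shown because the single called gene with a known protein starts there. It comes from RefSeq on GRCm38.p6 (chr2:131909678-131909977, plus strand) and runs from 250 bases before to 50 bases after the start, with GC boxes (GGGCGG on either strand) in capitals at -146, -35 and -3.
Prnp: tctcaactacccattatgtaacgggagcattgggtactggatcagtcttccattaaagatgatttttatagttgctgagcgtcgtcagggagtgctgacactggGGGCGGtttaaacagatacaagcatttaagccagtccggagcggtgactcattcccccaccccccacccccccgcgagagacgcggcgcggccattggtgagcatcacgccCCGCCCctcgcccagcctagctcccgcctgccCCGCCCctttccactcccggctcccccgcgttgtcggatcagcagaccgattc
A GC box was present in 62.5% of the promoters of 11920 tested genes that the RefSeq table holds (72.3% of the genes tested).

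App, the mouse gene of the amyloid precursor protein, had 2664, 2343 and 2562 CPM in the 5xFAD libraries, against 1365, 1405 and 1469.9 CPM in the WT libraries (chromosome 16, 84949685 to 85173766, minus strand). Again the lowest 5xFAD library lay well above the highest WT library. The log2 fold change of App was 0.82 ± 0.09, just short of the threshold (edgeR adjusted p = 0.0539). It passed with DESeq2's size factors (edgeR adjusted p = 0.0482) and without 5xFAD replicate 1 (0.0255). It also passed in a fit to 11 libraries without 5xFAD;Ulk1OV replicate 3 (edgeR adjusted p = 0.0102), but not in one to all 12 (0.180). The fold change of App stayed at 0.79 to 0.87 without any 1 library. Its edgeR adjusted p was 0.0676 and 0.437 without 5xFAD replicates 2 and 3. Without WT replicates 1, 2 and 3 it was 0.689, 0.245 and 0.152, and 0.0993 with replicate number as a block in the fit. Gabpa, a neighbour 85.9 kb from App, stood at -0.03 ± 0.09. Reads of a human transgene that map to mouse App are counted with it, and mouse and human reads were not told apart here.

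Thy1, whose promoter cassette drives the transgenes of the 5xFAD line, had 602, 506 and 591 CPM in the 5xFAD libraries, against 586, 641 and 555 CPM in the WT libraries. Libraries of both groups were interleaved, and the log2 fold change was -0.08 ± 0.10 (edgeR adjusted p = 0.778). Ulk1, which is not targeted in either of these groups, had 86.2, 63.4 and 69.9 CPM in the 5xFAD libraries, against 77.5, 81.7 and 73.98 CPM in the WT libraries, a log2 fold change of -0.10 ± 0.11 (edgeR adjusted p = 0.761). As background, the mouse Prnp promoter drives the transgenes of some other amyloid lines. Which construct the mice carried was not tested.

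**Figure D1:**
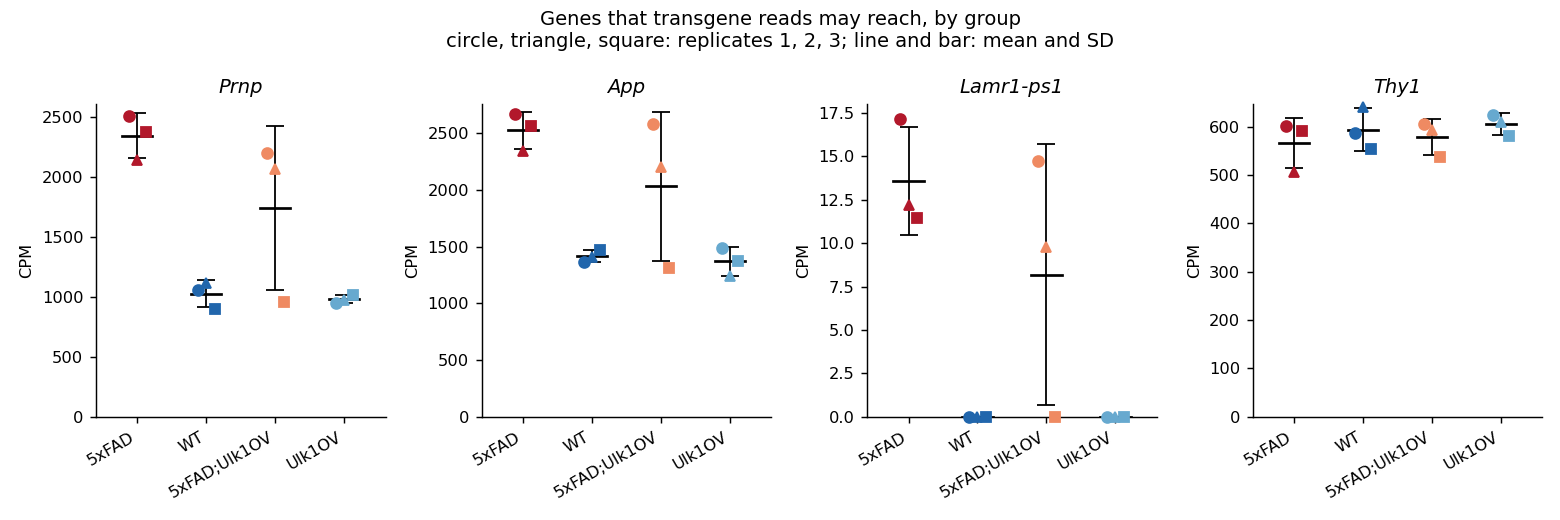
CPM of Prnp, App, Lamr1-ps1 and Thy1 in each library of the 4 groups; symbols are replicates, lines and bars the mean and SD of 3. The 3 5xFAD libraries sit above all WT libraries for Prnp, App and Lamr1-ps1 and among them for Thy1, and 5xFAD;Ulk1OV replicate 3 sits with the groups that carry no 5xFAD label.

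Genes of plaque-associated microglia were among the 10 named genes on the higher side. Cst7, an inhibitor of lysosomal cysteine proteases, had 7.398, 4.71 and 4.35 CPM in the 5xFAD libraries, against 0.235, 0 and 0.453 CPM in the WT libraries. Clec7a, the beta-glucan receptor dectin-1, had 2.88, 3.87 and 3.69 CPM in the 5xFAD libraries, against 1.06, 0.381 and 0.906 CPM in the WT libraries. Ccl6, a chemokine, had 6.44, 7.46 and 6.004 CPM in the 5xFAD libraries, against 2.99, 2.94 and 2.66 CPM in the WT libraries. In each of these genes all 5xFAD libraries were above all WT libraries, and WT replicate 2 had 0 counts of Cst7. Their log2 fold changes were 4.54 ± 0.61 for Cst7, 2.14 ± 0.37 for Clec7a and 1.20 ± 0.19 for Ccl6. None passed edgeR's test (adjusted p = 0.143, 0.209 and 0.181 in that order), while DESeq2 called each of them. In bulk tissue, more cells of a type and more RNA per cell cannot be told apart.

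The list of disease-associated microglial genes had 30 members, of which Ccl4 and Lilrb4a had too few counts to be tested. Among the other 28, 5xFAD lay wholly above WT in 11 and wholly below in 1, where 10.8% and 9.11% of all genes did so. At an unadjusted p under 0.05 by edgeR 11 were above 0 and 1 below, against 5.43% and 7.14% of all genes. The median log2 fold change was 0.19 (22 above 0, 6 below). It lay between 0.14 (without 5xFAD replicate 2 or 3) and 0.32 (without 5xFAD replicate 1) when 1 library was left out. DESeq2 called 3 higher and 1 lower, against 0.178% and 0.466% of the 29170 genes with any count. Members named after their values were seen were Lpl, lipoprotein lipase, at 0.42 ± 0.12, the integrin Itgax at 1.503 ± 0.47, the chemokine Ccl3 at 1.31 ± 0.44, the lysosomal protein Cd68 at 0.44 ± 0.15 and the signalling adaptor Tyrobp at 0.39 ± 0.15, with edgeR adjusted p of 0.265 to 0.348. These 5 were all picked from the higher side of the list. The member wholly below WT, the 1 that DESeq2 called lower, is not named here. The summed level of the 30 members was 6897.5, 7629.1 and 7230.3 CPM in the 5xFAD libraries, against 7440.5, 6901.9 and 7143.4 CPM in the WT libraries, so that the groups overlapped. Lpl had 43.4, 41.2 and 40.98 CPM in the 5xFAD libraries, against 36.4, 29.7 and 26.96 CPM in the WT libraries. Homeostatic microglial genes had a median of 0.07 over 18 genes, 1 wholly above WT and 0 wholly below, and the median lay between -0.02 and 0.15 without 1 library. Of these, Gpr34, a lysophospholipid receptor, stood at 0.41 ± 0.16, the lysosomal protein Laptm5 at 0.31 ± 0.12, and Tmem119, a microglial surface marker, at -0.24 ± 0.12 (-0.07 ± 0.12 after a correction for GC content and length).

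Promoters of the 3 microglial genes are shown because they had the smallest p of the list on the higher side. They come from RefSeq on GRCm38.p6, and capitals mark AGGAAG on either strand, the core bound by ETS factors such as PU.1. Their positions are chr2:150570165-150570464 on the plus strand for Cst7, chr6:129472730-129473029 on the minus strand for Clec7a and chr11:83593038-83593337 on the minus strand for Ccl6.
Cst7: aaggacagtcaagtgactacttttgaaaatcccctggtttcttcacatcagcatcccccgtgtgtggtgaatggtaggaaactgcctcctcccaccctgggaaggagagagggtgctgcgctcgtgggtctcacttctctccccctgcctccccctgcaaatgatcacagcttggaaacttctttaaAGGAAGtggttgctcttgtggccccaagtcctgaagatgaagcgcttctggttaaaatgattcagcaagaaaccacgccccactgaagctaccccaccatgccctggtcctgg
Clec7a: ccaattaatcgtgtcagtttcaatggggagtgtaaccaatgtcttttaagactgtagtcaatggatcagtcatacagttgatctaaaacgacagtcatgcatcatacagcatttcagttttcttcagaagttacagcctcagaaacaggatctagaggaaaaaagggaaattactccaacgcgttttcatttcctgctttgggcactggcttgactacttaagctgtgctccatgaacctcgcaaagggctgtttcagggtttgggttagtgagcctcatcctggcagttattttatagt
Ccl6: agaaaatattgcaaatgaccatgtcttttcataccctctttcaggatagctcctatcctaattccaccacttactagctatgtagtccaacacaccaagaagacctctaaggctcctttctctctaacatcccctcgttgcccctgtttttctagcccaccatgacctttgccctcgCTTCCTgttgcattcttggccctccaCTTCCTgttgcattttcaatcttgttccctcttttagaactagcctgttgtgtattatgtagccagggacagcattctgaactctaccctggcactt
The core was found at -63 in Cst7, at -73 and -47 in Ccl6 and nowhere in this window of Clec7a. It was present in 10 of 24 disease-associated microglial promoters in the table (41.7%), against 32.6% of all 11920.

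Antigen presentation genes mostly stood below WT. Of 18 tested, 0 lay wholly above WT and 9 wholly below, where 9.11% of all genes lay wholly below. DESeq2 called 1 lower, against 0.466% of the 29170 genes with any count. The median log2 fold change was -0.32, and -0.18 after the correction for GC content and length. H2-Eb1, a class II beta chain, had 0.678, 1.68 and 2.86 CPM in the 5xFAD libraries, against 7.87, 3.86 and 4.13 CPM in the WT libraries. Cd74, the class II invariant chain, had 4.41, 6.51 and 8.59 CPM in the 5xFAD libraries, against 22.2, 10.99 and 10.8 CPM in the WT libraries, and H2-T23, a non-classical class I gene, had 7.29, 10.8 and 8.32 CPM in the 5xFAD libraries, against 16.4, 13.8 and 11.6 CPM in the WT libraries. In these the groups did not overlap, and 5xFAD replicate 1 was the lowest library of all 6 each time. The log2 fold changes were -1.60 ± 0.48, -1.18 ± 0.33 and -0.67 ± 0.19 in the same order, with edgeR adjusted p of 0.284, 0.266 and 0.275. H2-Ab1, another class II beta chain, stood at -1.30 ± 0.42.

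Among reactive astrocyte genes, Gfap, the intermediate filament protein of astrocytes, had 1013, 1178 and 1006 CPM in the 5xFAD libraries, against 839, 784 and 687 CPM in the WT libraries. All 5xFAD libraries were above all WT libraries, with a log2 fold change of 0.46 ± 0.11 (edgeR adjusted p = 0.265; called by DESeq2). Osmr, the oncostatin M receptor, stood at 0.91 ± 0.30 and Serpina3n, a secreted protease inhibitor, at 0.37 ± 0.12, both also without overlap. Hspb1, a small heat shock protein, ran below WT, with 2.71, 3.65 and 4.41 CPM in the 5xFAD libraries, against 9.39, 5.39 and 5.27 CPM in the WT libraries and a log2 fold change of -0.90 ± 0.29. Over the 15 members tested, 3 lay wholly above and 1 wholly below WT, where 10.8% and 9.11% of all genes did so. The median of the list was 0.12. That median was 0.04 with the correction, -0.03 without WT replicate 3, and 0.02 to 0.04 when WT replicate 2 or either of 5xFAD replicates 2 and 3 was left out. The list of homeostatic astrocyte genes had 0 of 14 without overlap and a median of -0.01.

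**Figure D2:**
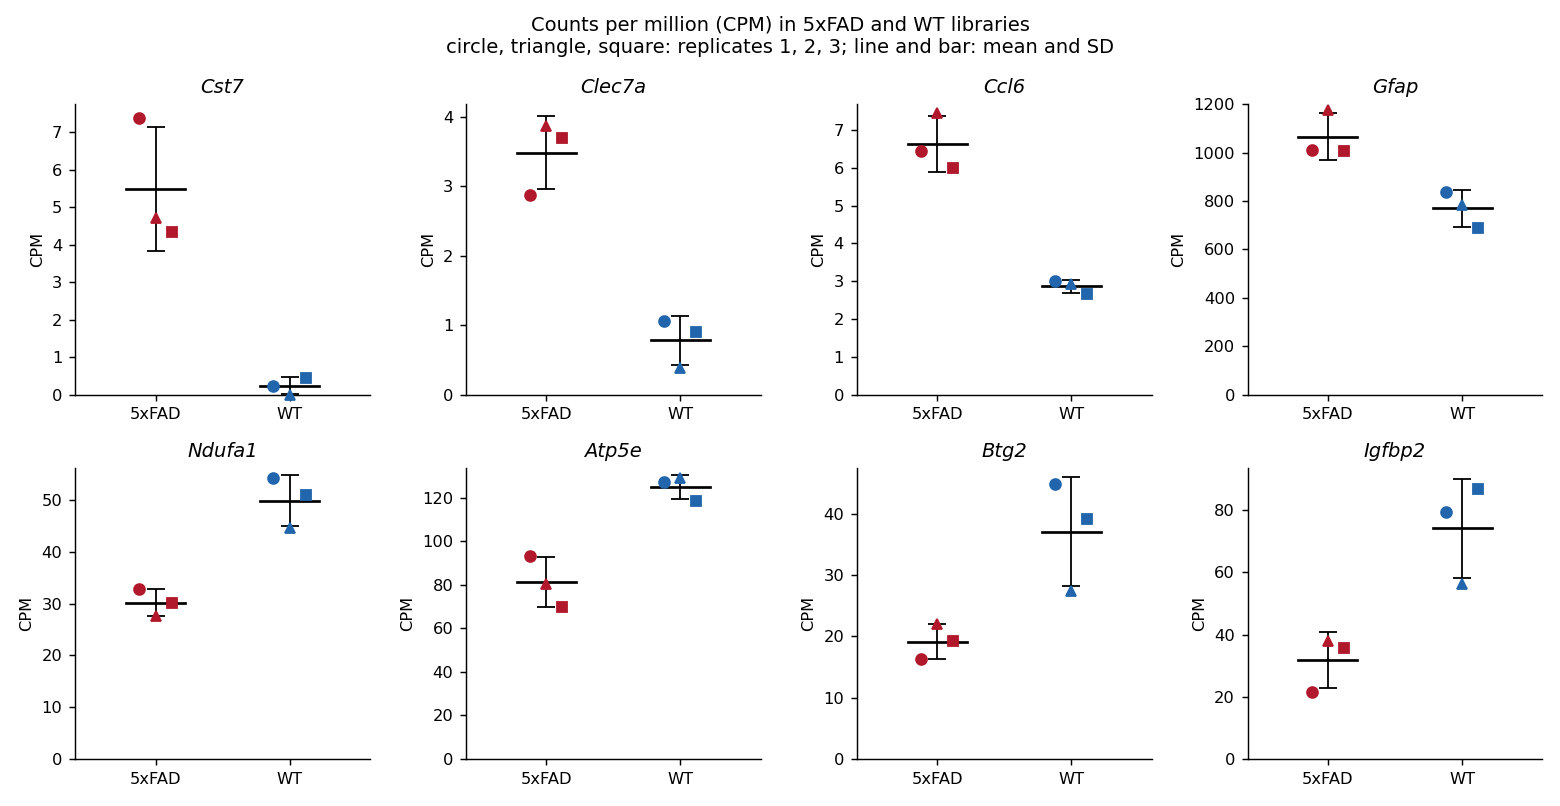
CPM of 8 genes in each 5xFAD and WT library; symbols are replicates, lines and bars the mean and SD of 3. In each panel the groups do not overlap: the microglial genes and Gfap are higher in 5xFAD, while Ndufa1, Atp5e, Btg2 and Igfbp2 are lower.

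Genes that neurons switch on after firing mostly stood below WT. Of 26 tested, 2 lay wholly above WT and 7 wholly below, where 10.8% and 9.11% of all genes did so. The median log2 fold change was -0.24, and DESeq2 called 5 lower, against 0.466% of the 29170 genes with any count. Btg2, an antiproliferative gene induced by activity, had 16.2, 21.99 and 19.2 CPM in the 5xFAD libraries, against 44.7, 27.3 and 39.1 CPM in the WT libraries. Dusp1, a MAP kinase phosphatase, had 20.3, 34.8 and 31.3 CPM in the 5xFAD libraries, against 52.5, 41.2 and 53.98 CPM in the WT libraries. Egr1, an early zinc finger transcription factor, had 139, 138 and 126 CPM in the 5xFAD libraries, against 172, 206 and 164 CPM in the WT libraries, and Junb, an AP-1 subunit, had 58.6, 80.9 and 56.7 CPM in the 5xFAD libraries, against 95.9, 117 and 85.99 CPM in the WT libraries. Each of the 4 had its highest 5xFAD library below its lowest WT library. The log2 fold changes were -0.97 ± 0.19 for Btg2, -0.78 ± 0.19 for Dusp1, -0.44 ± 0.10 for Egr1 and -0.62 ± 0.16 for Junb, with edgeR adjusted p of 0.256, 0.265, 0.262 and 0.265. After a correction for GC content and length they were -0.93 ± 0.18, -0.68 ± 0.19, -0.30 ± 0.10 and -0.39 ± 0.18, and the list's median was -0.13.

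Btg2 and Dusp1 are shown with their promoters because both hold a full cAMP response element, the site of the activity-dependent factor CREB. The capitals mark TGACGTCA, at -166 in Btg2 (chr1:134079106-134079405, minus strand) and at -143 in Dusp1 (chr17:26508423-26508722, minus strand), from RefSeq on GRCm38.p6.
Btg2: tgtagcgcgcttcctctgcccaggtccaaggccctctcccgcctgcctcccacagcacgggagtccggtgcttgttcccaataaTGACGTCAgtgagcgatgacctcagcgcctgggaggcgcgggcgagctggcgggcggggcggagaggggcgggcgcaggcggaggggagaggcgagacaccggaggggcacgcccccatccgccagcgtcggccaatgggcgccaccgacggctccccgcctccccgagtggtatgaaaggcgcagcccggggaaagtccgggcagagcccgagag
Dusp1: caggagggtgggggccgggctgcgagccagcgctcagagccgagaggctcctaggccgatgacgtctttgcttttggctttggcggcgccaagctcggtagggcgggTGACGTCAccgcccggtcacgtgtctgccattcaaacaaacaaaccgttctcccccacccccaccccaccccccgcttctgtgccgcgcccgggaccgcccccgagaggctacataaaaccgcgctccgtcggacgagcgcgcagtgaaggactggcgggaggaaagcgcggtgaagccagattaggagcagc
The element was present in 3 of 21 activity-dependent promoters in the table (14.3%), against 3.1% of all 11920.

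Receptors at the synapse stood slightly above WT. Of 27 glutamate and GABA receptor subunits, 10 lay wholly above WT and 0 wholly below, where 10.8% and 9.11% of all genes did so. The median was 0.16, and DESeq2 called 2 higher, against 0.178% of the 29170 genes with any count. Grik2, a kainate receptor subunit, had 69.5, 64.7 and 72.5 CPM in the 5xFAD libraries, against 48.1, 49.2 and 55.1 CPM in the WT libraries. The GABA-A receptor subunit Gabra4 had 139, 138 and 149 CPM in the 5xFAD libraries, against 112, 116 and 113 CPM in the WT libraries. Their log2 fold changes were 0.43 ± 0.09 and 0.31 ± 0.07, and that of Gabrb1, a further GABA-A subunit, was 0.36 ± 0.09. Corrected for GC content and length, Grik2 stood at 0.25 ± 0.09, Gabra4 at 0.23 ± 0.07 and Gabrb1 at 0.20 ± 0.09.

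Markers of dentate gyrus granule cells had 14 tested members, whose median log2 fold change was 0.37. Of these, 13 were above 0 and 2 wholly above WT, where 10.8% of all genes lay wholly above. The median was 0.13 without 5xFAD replicate 3 and 0.21 without WT replicate 2. Pter, related to phosphotriesterases, had 116, 120.4 and 130.4 CPM in the 5xFAD libraries, against 88.2, 86.9 and 89.7 CPM in the WT libraries, with no overlap and a log2 fold change of 0.46 ± 0.08 (edgeR adjusted p = 0.181). C1ql3, a secreted synaptic protein, had 64.2, 55.7 and 52.2 CPM in the 5xFAD libraries, against 43.6, 43.3 and 42.7 CPM in the WT libraries. Pter and C1ql3 are the 2 members wholly above WT, and they abut on opposite strands of chromosome 2 (at 13003455 and 13003457). They are thus 1 locus, and whether reads were shared between them was not tested. Dock10, a guanine nucleotide exchange factor, stood at 0.55 ± 0.20 with overlapping groups. CA1 pyramidal markers had a median of -0.22 over 12 genes, 1 wholly above and 2 wholly below WT, where 10.8% and 9.11% of all genes were so. The CA1 median was -0.12 with the correction, -0.10 without 5xFAD replicate 3 or WT replicate 2, and -0.35 without WT replicate 3. Tyro3, a receptor tyrosine kinase, had 113, 90.7 and 109 CPM in the 5xFAD libraries, against 127, 168 and 124 CPM in the WT libraries, and Pou3f1, a POU transcription factor, stood at -0.35 ± 0.15, or -0.11 ± 0.15 with the correction. How the hippocampus was dissected was not tested as a source of these marker levels. Nts, the precursor of the neuropeptide neurotensin, had 14.97, 16.9 and 16.1 CPM in the 5xFAD libraries, against 9.86, 8.27 and 9.403 CPM in the WT libraries and a log2 fold change of 0.79 ± 0.13 (edgeR adjusted p = 0.181). Also among the 10 named genes on the higher side were Crls1, cardiolipin synthase, at 0.43 ± 0.08 and Dtna, the scaffold dystrobrevin alpha, at 0.33 ± 0.07.

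Of the 10 named genes on the lower side, 5 encode mitochondrial proteins. Ndufa2, Ndufa1 and Ndufa3 are accessory subunits of respiratory complex I, the entry point of electrons from NADH. Ndufa2 had 37.2, 33.6 and 37.5 CPM in the 5xFAD libraries, against 73.1, 59.2 and 58.1 CPM in the WT libraries. Ndufa1 had 32.8, 27.5 and 30.2 CPM in the 5xFAD libraries, against 54.2, 44.6 and 50.9 CPM in the WT libraries. Ndufa3 had 54.7, 38.6 and 42.4 CPM in the 5xFAD libraries, against 83.1, 79.9 and 74.2 CPM in the WT libraries. No 5xFAD library reached the level of a WT library in any of the 3. The log2 fold changes were -0.83 ± 0.11, -0.74 ± 0.11 and -0.82 ± 0.13, with edgeR adjusted p of 0.143, 0.161 and 0.171. Of 37 complex I genes tested, 1 lay wholly above WT and 20 wholly below, where 10.8% and 9.11% of all genes did so. At an unadjusted p under 0.05 by edgeR 19 were below 0, against 7.14% of all genes. DESeq2 called 7 lower, against 0.466% of the 29170 genes with any count. The median of the list was -0.19.

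Genes of the later steps of the respiratory chain also stood mostly below WT. Uqcr11, a small subunit of complex III, had 68.5, 52.8 and 61.4 CPM in the 5xFAD libraries, against 106, 95.4 and 99.5 CPM in the WT libraries, and its log2 fold change was -0.73 ± 0.10 (edgeR adjusted p = 0.161). Its fellow complex III gene Uqcrh stood at -0.43 ± 0.08, Cox5b of cytochrome c oxidase at -0.43 ± 0.09 and Sdhd of complex II at -0.36 ± 0.08. Of 24 genes of complexes II, III and IV, 0 lay wholly above and 11 wholly below WT, with a median of -0.18. DESeq2 called 4 of them lower. Among 17 ATP synthase genes, 0 lay wholly above and 7 wholly below, with a median of -0.13 and 3 called lower by DESeq2. Of all genes, 10.8% lay wholly above and 9.11% wholly below, and DESeq2 called 0.466% of the 29170 genes with any count lower. Atp5k, a subunit that joins ATP synthase dimers, had 38.3, 14.6 and 14.05 CPM in the 5xFAD libraries, against 62.9, 64.7 and 68.8 CPM in the WT libraries: all 5xFAD libraries were below WT, but 5xFAD replicate 1 held more than the other two together. The log2 fold change of Atp5k was -1.57 ± 0.34 and was called neither by edgeR (adjusted p = 0.262) nor by DESeq2 (adjusted p = 0.073). Without that library it was -2.20 (edgeR adjusted p = 0.00013). Without any other 1 library the adjusted p from edgeR was 0.288 to 0.689. Atp5e, the epsilon subunit, had 93.3, 80.6 and 70 CPM in the 5xFAD libraries, against 128, 129 and 118 CPM in the WT libraries and stood at -0.63 ± 0.11.

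The promoter of Uqcr11 is shown as an example of these genes, many of which are known targets of the factors NRF1 and GABPA. The capitals mark GCATGCGC, the core of the NRF1 site, at -4, and CCGGAAGT, the GABPA site, at -66 (RefSeq on GRCm38.p6, chr10:80406772-80407071, minus strand).
Uqcr11: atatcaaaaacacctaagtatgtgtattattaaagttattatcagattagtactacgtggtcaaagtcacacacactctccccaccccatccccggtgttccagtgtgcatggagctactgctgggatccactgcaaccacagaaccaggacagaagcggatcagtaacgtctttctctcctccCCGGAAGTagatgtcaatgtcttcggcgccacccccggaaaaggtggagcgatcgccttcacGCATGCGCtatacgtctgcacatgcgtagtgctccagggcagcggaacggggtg
Searched on both strands, the NRF1 core was present in 3 of 33 complex I promoters (9.09%), 4 of 17 of complexes II, III and IV (23.5%) and 3 of 14 of ATP synthase (21.4%), against 4.99% of all 11920. The GABPA site was present in 3.03%, 17.6% and 7.14% of the same lists, against 7.55% of all.

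The protein genes of the mitochondrial genome stood mostly above WT. Of 13, 5 lay wholly above WT and 0 wholly below, where 10.8% and 9.11% of all genes did so. The median was 0.20, and edgeR and DESeq2 called 0 of them. At an unadjusted p under 0.05 by edgeR 3 were above 0, against 5.43% of all genes. mt-Co1, the catalytic subunit of cytochrome c oxidase, had 19414, 22495 and 17649.5 CPM in the 5xFAD libraries, against 16691, 15419 and 15319 CPM in the WT libraries. mt-Nd2 of complex I had 3952, 5780.1 and 4033 CPM in the 5xFAD libraries, against 3821, 3603 and 3445 CPM in the WT libraries. In both genes 5xFAD replicate 2 was the highest of the 6 libraries, and the groups did not overlap. Their log2 fold changes were 0.32 ± 0.11 and 0.33 ± 0.15, and 0.21 ± 0.12 for mt-Nd2 after the correction. The list, with a median GC content of 37.1%, had a median fold change of 0.08 after the correction and likewise 0.08 without 5xFAD replicate 2. Transcripts of the mitochondrial genome as a whole took 5.88%, 6.98% and 5.52% of the counts in the 5xFAD libraries, against 5.42%, 5.05% and 5.27% in the WT libraries.

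Outside the respiratory chain, the genes of small p on the lower side had varied roles. Tomm7, a subunit of the mitochondrial import pore, had 24.7, 23.6 and 24.3 CPM in the 5xFAD libraries, against 49.9, 40.1 and 36.4 CPM in the WT libraries. Bcam, a laminin receptor of vessels and epithelia, had 6.04, 6.06 and 6.94 CPM in the 5xFAD libraries, against 15.3, 11.5 and 16.99 CPM in the WT libraries. Naa38, a subunit of the NatC acetyltransferase, had 11.97, 9.93 and 12.3 CPM in the 5xFAD libraries, against 29.5, 25.3 and 19.2 CPM in the WT libraries. In none of them did the groups overlap, and the log2 fold changes were -0.81 ± 0.12, -1.21 ± 0.18 and -1.12 ± 0.17. Myl6, a myosin light chain, stood at -0.58 ± 0.09 and Erf, an ETS repressor, at -0.63 ± 0.09. Rps29, a protein of the small ribosomal subunit, had 176, 131 and 137 CPM in the 5xFAD libraries, against 245, 227 and 254 CPM in the WT libraries and a log2 fold change of -0.72 ± 0.12. Its family was mixed: of 47 cytosolic ribosome genes, 4 lay wholly above and 15 wholly below WT, where 10.8% and 9.11% of all genes did so. The median was -0.09, or -0.05 without WT replicate 1. After the correction the median was -7e-05, with 7 genes above and 7 below 0 at an unadjusted p under 0.05 by edgeR. Rpl11, Rps28 and Rpl38 stood at -0.46 ± 0.09, -0.86 ± 0.16 and -0.59 ± 0.12, and Rpl38 at -0.34 ± 0.10 with the correction. Counts of ribosomal protein genes are uncertain, because their processed pseudogenes can share reads.

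Autophagy genes had no common direction, with a median of -0.02 over 28 genes. Among them 8 lay wholly above WT and 2 wholly below, where 10.8% and 9.11% of all genes did so. By edgeR or DESeq2 0 were called. At an unadjusted p under 0.05 by edgeR 4 were above and 2 below 0, against 5.43% and 7.14% of all genes. Rb1cc1, the scaffold of the ULK1 complex also named FIP200, had 122, 133 and 127 CPM in the 5xFAD libraries, against 88.5, 101 and 108 CPM in the WT libraries. Map1lc3a, a homologue of the autophagosome protein LC3, had 151, 104 and 119 CPM in the 5xFAD libraries, against 169.8, 176 and 164 CPM in the WT libraries. The first lay wholly above WT and the second wholly below, at 0.35 ± 0.09 and -0.46 ± 0.13. With the correction Rb1cc1 stood at 0.19 ± 0.08 and Map1lc3a at -0.23 ± 0.10. Atg5, needed for LC3 lipidation, stood at 0.33 ± 0.10. Among 16 genes of APP processing, the median was 0.05, and 4 lay wholly above and 2 wholly below, against the same shares of all genes. Ide, an amyloid-degrading protease, had 59.2, 64.4 and 59.7 CPM in the 5xFAD libraries, against 50.6, 53.2 and 52.4 CPM in the WT libraries, and Aph1a, a gamma-secretase subunit, had 29.5, 31.6 and 32.7 CPM in the 5xFAD libraries, against 41.7, 35.5 and 34.7 CPM in the WT libraries. They stood at 0.22 ± 0.08 and -0.27 ± 0.10, or 0.14 ± 0.07 and -0.17 ± 0.10 with the correction. Without 1 library the median of APP processing lay between 0.01 and 0.13.

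Markers of vessels and of the brain's coverings stood lower in 5xFAD. All 19 endothelial genes tested were below 0, with a median of -0.53. Among them 0 lay wholly above and 7 wholly below WT, where 10.8% and 9.11% of all genes did so. DESeq2 called 2 of the endothelial genes lower, against 0.466% of the 29170 genes with any count. Cldn5, a claudin of the blood-brain barrier, had 3.28, 3.53 and 4.52 CPM in the 5xFAD libraries, against 11.9, 5.82 and 7.59 CPM in the WT libraries. Vwf, von Willebrand factor, had 4.46, 8.41 and 10.6 CPM in the 5xFAD libraries, against 18.2, 11.9 and 21.6 CPM in the WT libraries. Neither gene overlapped between groups, and their log2 fold changes were -1.17 ± 0.28 and -1.15 ± 0.32 (edgeR adjusted p = 0.265 and 0.265). The endothelial median was -0.31 without WT replicate 3 and -0.35 without WT replicate 1. Of 20 genes of meningeal and perivascular fibroblasts, 0 lay wholly above and 10 wholly below, with a median of -0.86 (-0.56 without WT replicate 1) and 4 called lower by DESeq2. Igfbp2, an insulin-like growth factor binding protein, had 21.5, 38.03 and 35.7 CPM in the 5xFAD libraries, against 79.4, 56.3 and 86.9 CPM in the WT libraries. Col1a1, a fibrillar collagen chain, had 6.21, 8.19 and 10.4 CPM in the 5xFAD libraries, against 22.7, 17.4 and 10.99 CPM in the WT libraries, and Slc6a13, a GABA transporter of meninges, had 7.23, 12.2 and 15.7 CPM in the 5xFAD libraries, against 32, 23.1 and 17.3 CPM in the WT libraries. In these 3 genes the lowest library was 5xFAD replicate 1. Their log2 fold changes were -1.24 ± 0.22, -1.05 ± 0.27 and -1.05 ± 0.29.

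Such markers report tissue that borders the hippocampus as well as its own vessels. The summed level of the 20 fibroblast genes was 298, 493 and 505 CPM in the 5xFAD libraries, against 926, 603 and 560 CPM in the WT libraries. The summed level of the 19 endothelial genes was 559, 576 and 617 CPM in the 5xFAD libraries, against 721, 662 and 844 CPM in the WT libraries. Neither sum overlapped between the groups. The antigen presentation list, whose class II genes border macrophages also make, summed to 306, 392 and 363 CPM in the 5xFAD libraries, against 407, 365 and 346 CPM in the WT libraries, so that its groups overlapped. The part of bordering tissue in these differences was not tested.

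Choroid plexus was uneven between libraries of one group. Ttr, the carrier of thyroxine that this epithelium makes in bulk, had 5.08, 92.7 and 120.1 CPM in the 5xFAD libraries, against 24.95, 64.5 and 5942 CPM in the WT libraries, so that WT replicate 3 alone stood apart. The median of 16 choroid plexus genes was -1.86 with all libraries and 0.12 without WT replicate 3. Only Slc13a4, a sulphate transporter that meninges also make, lay wholly below WT, at -1.11 ± 0.24. The members, Aqp1, Slc4a5, Steap1 and Kcne2, did not pass the filter on low counts.

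**Figure D3:**
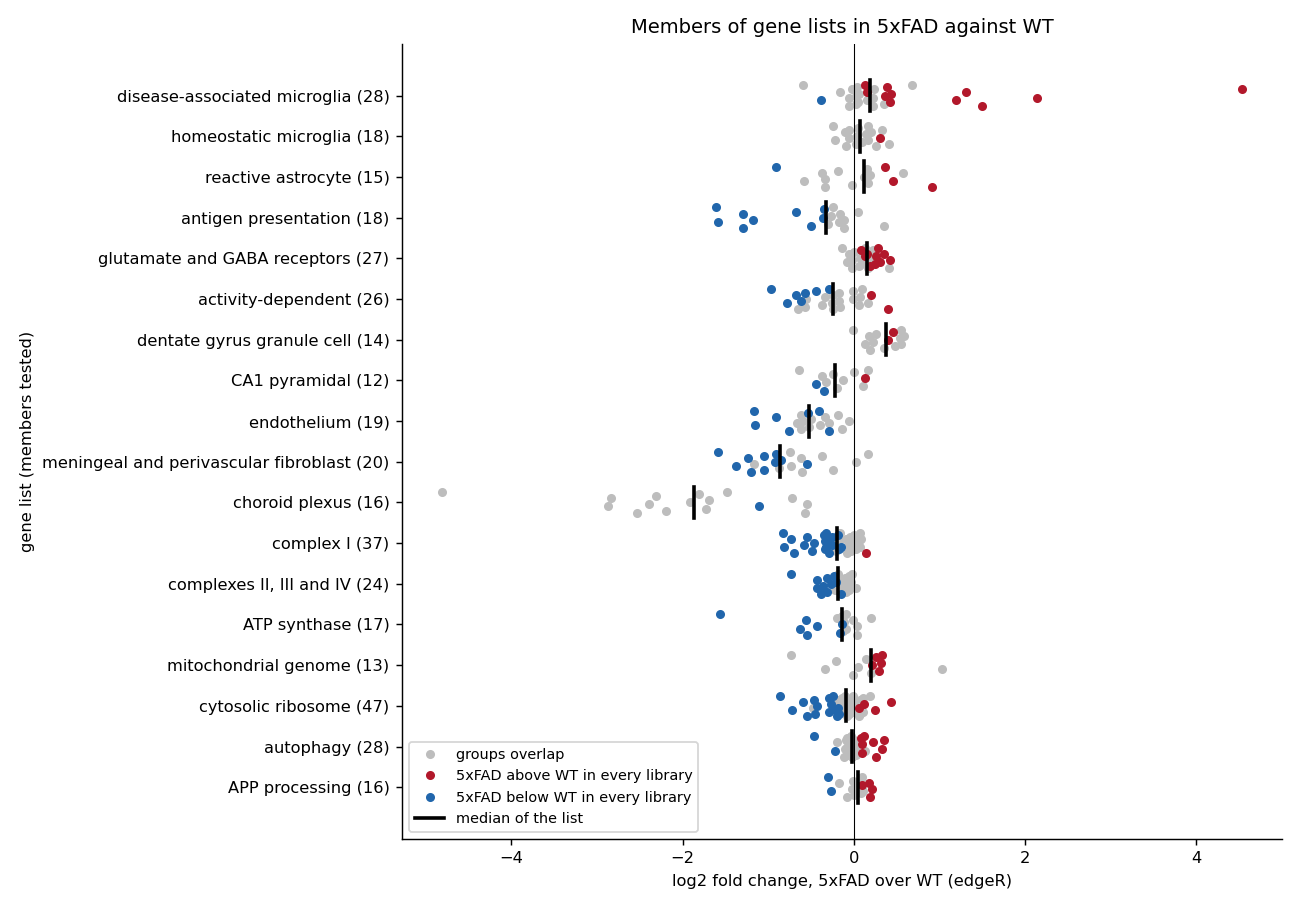
Log2 fold change (edgeR, 5xFAD over WT) of each tested member of 18 gene lists; a point is a gene, coloured by whether its 3 5xFAD libraries lie wholly above, wholly below or among its 3 WT libraries, and the bar is the list's median. Disease-associated microglial genes reach 4.54 (Cst7), while complex I (median -0.19), endothelial (-0.53) and fibroblast genes (-0.86) lie mostly below 0.

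The differences varied with the base composition and length of transcripts. Median log2 fold change was 0.17 for the 1070 genes whose longest transcript had a GC content under 40%, and -0.20 for the 729 genes at 60% or more, of which 85% were below 0. It was -0.15 for the 717 transcripts shorter than 750 bases and 0.08 for the 2212 of at least 6000. Spearman's rho over 16373 genes was -0.436 for GC content and 0.207 for length, as a description across genes of these libraries. In the class of at least 60%, the libraries' median deviations from the mean of all 6, on the log2(CPM + 1) scale, were 0.05, -0.20 and -0.11 in 5xFAD, against 0.13, 0.11 and 0.02 in WT, so that 5xFAD replicate 1 lay among the WT libraries. Complex I genes had a median GC content of 51.3% and a median length of 1046 bases, against 49.6% and 3233 bases over all genes tested.

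Once a loess trend over GC content and length had been taken out of every library, rho was -0.0483 and the same 2 genes were called. Prnp then stood at 1.22 ± 0.12 (edgeR adjusted p = 0.0297) and App at 0.75 ± 0.10 (edgeR adjusted p = 0.135). The microglial genes stood at 4.65 ± 0.61 for Cst7, 2.06 ± 0.36 for Clec7a and 1.20 ± 0.19 for Ccl6, and Gfap at 0.58 ± 0.12. Ndufa2, Ndufa1 and Ndufa3 stood at -0.67 ± 0.11, -0.61 ± 0.11 and -0.67 ± 0.13, and Uqcr11 at -0.49 ± 0.08. The medians of complex I and of complexes II, III and IV were both -0.10 after the correction, and that of ATP synthase was -0.20. Fibroblast and endothelial medians were -0.85 and -0.55, against -0.86 and -0.53 before it.

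**Figure D4:**
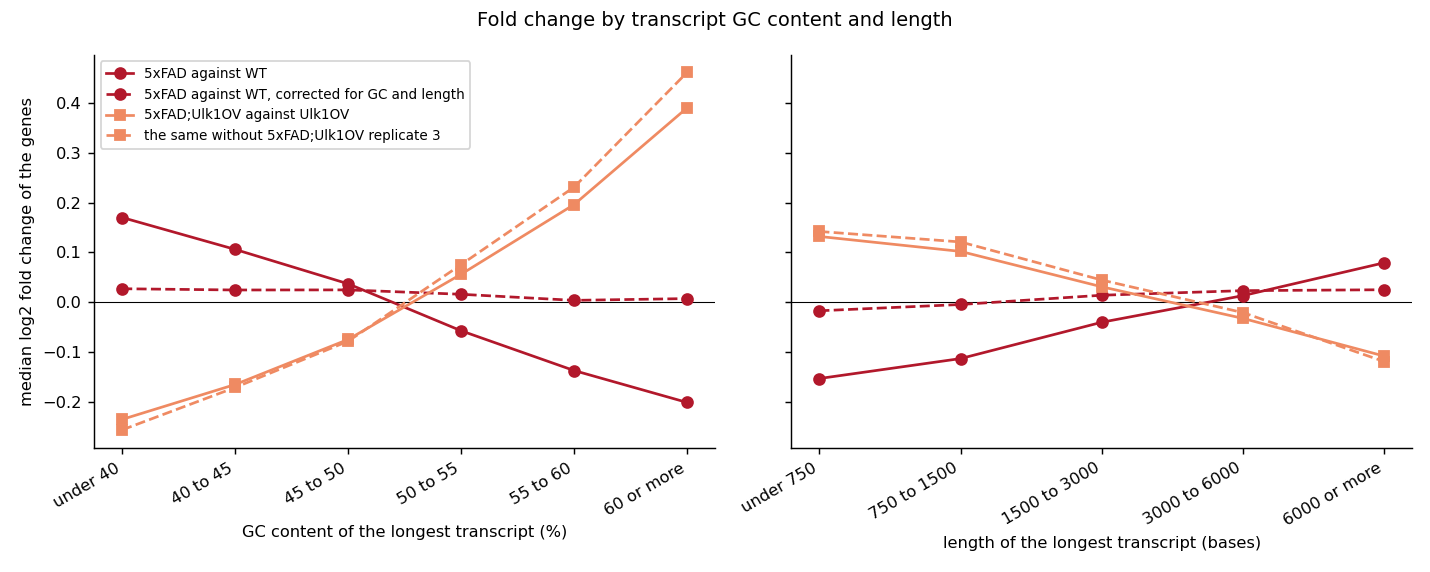
Median log2 fold change of genes in classes of GC content (left) and length (right) of the longest transcript, for 5xFAD against WT, the same corrected, and 5xFAD;Ulk1OV against Ulk1OV with and without replicate 3 of 5xFAD;Ulk1OV. The 2 pairs of groups slope in opposite directions, and the corrected line lies between -0.02 and 0.03.

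The second pair of groups, 5xFAD;Ulk1OV against Ulk1OV, gives values of the same genes in other libraries. One of its libraries, 5xFAD;Ulk1OV replicate 3, went against its label: it had 953 CPM of Prnp, 1309 CPM of App, 0.78 CPM of Cst7 and 0 counts of Lamr1-ps1. By the same test 324 genes were higher in 5xFAD;Ulk1OV (1.97%) and 106 lower (0.643%), and without that library 838 (4.96%) and 557 (3.3%). Prnp, App and the microglial genes lay on the same side as in 5xFAD against WT. Their log2 fold changes in the second pair were 0.83 ± 0.26 for Prnp, 0.57 ± 0.21 for App, 4.08 ± 0.90 for Cst7, 0.94 ± 0.27 for Ccl6 and 0.84 ± 0.40 for Clec7a, of which Cst7 passed (edgeR adjusted p = 0.049). Without 5xFAD;Ulk1OV replicate 3 they were 1.14 ± 0.09 for Prnp, 0.82 ± 0.12 for App, 4.59 ± 0.59 for Cst7, 1.15 ± 0.25 for Ccl6 and 1.17 ± 0.31 for Clec7a. The first 4 then passed (edgeR adjusted p of 0.000868, 0.00912, 0.00578 and 0.0279), and Clec7a did not (0.0528). For none of them did the difference between the pairs pass the interaction test over 12 libraries (edgeR adjusted p of 0.142 to 0.854).

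Most other genes named above lay on opposite sides in the 2 pairs. Ndufa1 stood at -0.74 ± 0.11 in 5xFAD against WT and at 0.80 ± 0.14 in 5xFAD;Ulk1OV against Ulk1OV. Atp5k stood at -1.57 ± 0.34 and 2.58 ± 0.21, Junb at -0.62 ± 0.16 and 1.03 ± 0.17, Slc6a13 at -1.05 ± 0.29 and 2.09 ± 0.37, and Pter at 0.46 ± 0.08 and -0.34 ± 0.14. The interaction test called each of these 5 (edgeR adjusted p of 0.00275 to 0.0108), and of 81 genes named by the rule and reported here it called 59. After the correction 42 of the 59 were still called. Pter was not among them, with a difference of 0.49 (edgeR adjusted p = 0.145) and a fold change of -0.15 ± 0.15 in the second pair, while Ndufa1, Atp5k, Junb and Slc6a13 were. Over all 17227 genes the interaction test called 1026 above 0 (5.96%) and 1171 below 0 (6.8%). Most named genes were picked by their p in 5xFAD against WT, whose libraries the interaction test also uses. Their share called is raised by that picking and is no separate support. Gfap stood at 0.46 ± 0.11 and 0.24 ± 0.13 in the 2 pairs, and the difference between them did not pass (edgeR adjusted p = 0.407).

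Across genes the 2 pairs ran against each other. Of 887 genes above 0 at an unadjusted p under 0.05 in 5xFAD against WT and tested in both pairs, 808 (91.1%) were below 0 in the second, and of 1159 genes below 0, 1056 (91.1%) were above 0, against 71.1% on opposite sides among all 16140. Spearman's rho of the log2 fold changes was -0.494, or -0.459 without 5xFAD;Ulk1OV replicate 3 and -0.354 with both pairs corrected for GC content and length. GC content had a rho of 0.484 with the fold change in the second pair, the opposite sign to the first. The labels give no batch or date of preparation, so a batch and the groups cannot be told apart.

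**Figure D5:**
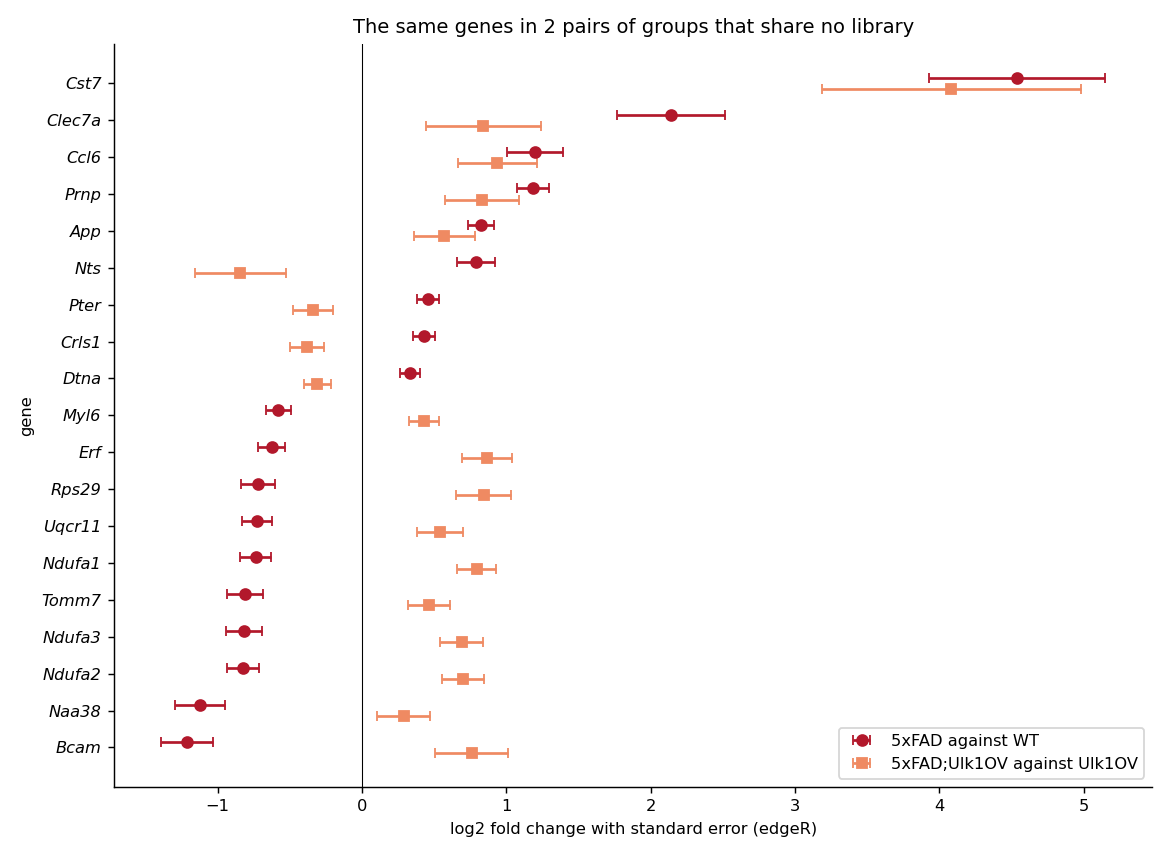
Log2 fold change with edgeR's standard error of 19 genes named on the higher or lower side of 5xFAD against WT, in that pair of groups and in 5xFAD;Ulk1OV against Ulk1OV. Lamr1-ps1 is left out for its 0 counts. Cst7, Clec7a, Ccl6, Prnp and App lie above 0 in both, and the other 14 lie on opposite sides.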

How the data were processed

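RNA-seq of hippocampus was deposited as 1 table of raw counts per gene, which the authors made from total RNA libraries (NEBNext Ultra kit, per the labels). The submitters' processing notes list FastQC, Trim Galore, HISAT2, SAMtools, featureCounts, DESeq2 and the build mm10, with no roles or versions. The sources used here do not say how strand was handled. Of the 54427 genes listed, 25257 had 0 counts in all 6 libraries, and 24 symbols had been turned into dates (at most 0.301% of a library).

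The 3 libraries of each group were compared with edgeR 4.0.16 in R 4.3.3 (filterByExpr, TMM, quasi-likelihood test, Benjamini-Hochberg adjustment, 0.05 over all genes tested). CPM used TMM over all 12 libraries, and a standard error is the log2 fold change divided by the root of F. The alternatives were DESeq2 1.42.0, its size factors, no filter, a replicate block, 12 or 11 libraries, leaving out each library, and a loess correction (span 0.4) for GC content and length of the longest transcript of GENCODE release M21 on GRCm38. Fits were tested on simulated data. Promoters came from RefSeq, read with Python 3.11.15.

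Named were App, Prnp, Thy1, Lamr1-ps1 and Ulk1, up to 10 genes per direction (those called, then the smallest p) with groups that do not overlap and a mean of at least 1 CPM, and up to 4 members of each list by p. Among the genes per direction, symbols of the form Gm plus digits or ending in Rik were passed over, 3 higher and 0 lower. Members and lists were chosen with earlier results of these data known. Of 42 lists, 18 are described here and the other 24 only briefly, without all the members that the rule picks.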

Additional observations from a re-analysis of the deposited data

Results flagged for a closer look

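For 59 of the 81 named genes, the log2 fold change in 5xFAD against WT differed from that in 5xFAD;Ulk1OV against Ulk1OV by the interaction test over 12 libraries (edgeR adjusted p of 0.00275 to 0.0484), 19 with a difference above 0 and 40 below 0. Over all 17227 genes the same test called 1026 above 0 (5.96%) and 1171 below 0 (6.8%). The share among named genes is raised by the way they were picked, since most were taken by their p in the first pair. Each value by gene group is the fold change of the first pair minus that of the second. The second pair holds 5xFAD;Ulk1OV replicate 3, which went against its label, and 57 of the 59 were called without it.

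After the correction for GC content and length, 42 of the 59 were still called, 17 were not, 13 were smaller by over 1.5 times and 0 changed sign. The differences not called then were -0.50 for Map1lc3a, -0.999 for Naa38, -1.50 for Cldn5, 0.38 for Gabrb1, -0.997 for Dusp1, -1.60 for Vwf, 0.89 for Stxbp6, 1.44 for mt-Co3, -0.48 for Tyro3, -1.93 for Cd74, 0.49 for Pter, -0.89 for Hspb1, 0.36 for Gabra4, 0.25 for Bnip3, 0.27 for Grik2, -0.36 for Pou3f1 and -0.25 for Rpl38 (edgeR adjusted p of 0.051 to 0.537).

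Neuronal genes with differences above 0 had 1.65 for Nts, 1.13 for Dock10, 1.12 for Stxbp6, 0.81 for Pter, 0.53 for C1ql3, 0.79 for Gabrb1, 0.71 for Grik2 and 0.61 for Gabra4. The mitochondrial genome had 1.60 for mt-Co3, 1.36 for mt-Nd6, 1.19 for mt-Nd2 and 1.10 for mt-Co1. Genes of autophagy and amyloid breakdown had 0.81 for Rb1cc1, 0.66 for Atg5, 0.45 for Bnip3 and 0.69 for Ide. The remaining genes above 0 had 0.82 for Crls1, 0.71 for Serpina3n and 0.66 for Dtna.

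Nuclear genes of the respiratory chain and ATP synthase had -0.67 for Sdhd, -0.76 for Ndufb3, -0.94 for Uqcrh, -1.26 for Uqcr11, -1.49 for Ndufa3, -1.51 for Ndufa2, -1.52 for Ndufa1, -1.01 for Atp5o, -1.54 for Atp5e, -1.60 for Atp5g3 and -4.14 for Atp5k. Ribosomal protein genes had -0.83 for Rpl38, -0.84 for Rpl11, -1.55 for Rps29 and -1.68 for Rps28. Activity-dependent genes had -1.13 for Egr1, -1.21 for Dusp1, -1.62 for Btg2 and -1.64 for Junb, and CA1 markers had -0.70 for Tyro3 and -0.99 for Pou3f1. Antigen presentation genes had -1.70 for H2-T23, -2.28 for Cd74 and -3.61 for H2-Eb1. Vessel, fibroblast and choroid plexus genes had -1.35 for Tek, -1.83 for Vwf, -1.98 for Cldn5, -1.96 for Bcam, -1.82 for Fn1, -2.18 for Igfbp2, -2.92 for Col1a1, -3.13 for Slc6a13 and -2.36 for Slc13a4. The other genes below 0 had -0.77 for Aph1a, -1.09 for Map1lc3a, -0.999 for Myl6, -1.26 for Tomm7, -1.40 for Naa38, -1.48 for Erf and -1.51 for Hspb1. What lies behind these differences was not tested.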

How the results depend on the processing

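In 5xFAD against WT, 2 genes were called by edgeR, while DESeq2 called 188 and edgeR without a filter on low counts 272. The fit to all 12 libraries called 0 (2139 at an unadjusted p under 0.05). The fit to 11 libraries, without 5xFAD;Ulk1OV replicate 3, called 3, which were Prnp, Lamr1-ps1 and App (edgeR adjusted p of 0.000286, 0.000286 and 0.0102). Leaving out 1 library gave 0 to 74 calls, with 74 without 5xFAD replicate 1 and 0 without 5xFAD replicate 2 (1784 at an unadjusted p under 0.05). The log2 fold changes of Thy1 and Ulk1 turned to 0.0525 and 0.0405 with the GC content and length correction. Of the other named genes, 83 kept their direction and side of the threshold under it. In 5xFAD;Ulk1OV against Ulk1OV the 430 calls became 1354 with DESeq2, 1937 without a filter, 1051 with 12 libraries, 188 with the correction, 1065 with the correction and without 5xFAD;Ulk1OV replicate 3, and 1 to 1395 without 1 library. The 2197 interaction calls became 925 with the correction, 1196 with it and without that library, and 974 to 2596 without 1 library. The corrections of this pair and of the interaction were chosen after seeing the data. The causes were not tested. Equal replicate numbers did not pair the libraries: their deviations from the group means correlated at 0.08, -0.10 and 0.23 between 5xFAD and WT. With the replicate block 1 gene was called in 5xFAD against WT (Lamr1-ps1; Prnp had an edgeR adjusted p of 0.0673), 591 in the second pair and 2259 in the interaction. With 3 libraries a group, differences of low genes such as H2-Eb1 were not resolved.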

Other observations

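Immune lists beyond the microglial ones had medians slightly below 0 with all 6 libraries. The median log2 fold change was -0.21 over 14 complement genes, -0.15 over 19 interferon response genes and -0.13 over 13 cytokine and chemokine genes, and -0.07, -0.09 and 0.01 after the correction for GC content and length. In these lists 0, 1 and 0 genes lay wholly below WT and 0 wholly above, where 9.11% and 10.8% of all genes did so. Without 1 library their medians lay between -0.24 and -0.02, -0.44 and 0.07, and -0.17 and -0.03 in the same order. Mural cells had a median of -0.28 over 14 genes, with 3 wholly below WT. Perivascular macrophages and leukocytes had -0.45 over 11 genes and blood had -0.47 over 6, each with 1 wholly below. Without 1 library the median lay between -0.50 and -0.11 for mural cells, -0.65 and -0.17 for macrophages and leukocytes, and -0.92 and -0.12 for blood.

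Other cells and pathways had medians between -0.19 and 0.19. Oligodendrocyte and myelin genes had a median of 0.11, their precursors -0.01 and interneurons -0.09, with 0 genes without overlap in each. CA3 pyramidal markers had 0.19 with 1 wholly above WT, ependyma -0.02 with 0, synaptic vesicle and scaffold genes 0.05 with 2 above, and adult neurogenesis -0.19 with 2 above and 2 below. Without 1 library the median lay between -0.12 and 0.22 for adult neurogenesis, -0.42 and 0.32 for ependyma, and -0.10 and 0.38 for oligodendrocyte and myelin genes. Lysosomal genes had 0.02 with 3 above and 2 below, and the proteasome -0.04 with 5 above and 4 below. The unfolded protein response had -0.04, the integrated stress response -0.07 and heat shock 0.04. Cholesterol synthesis had 0.09 with 7 above and 3 below, glucocorticoid-induced and metallothionein genes 0.12, clock genes 0.02 and Alzheimer risk genes 0.09. Of all genes, 10.8% lay wholly above and 9.11% wholly below. Among the genes of these lists that DESeq2 called were Mt1, which was higher, and Hbb-bt and Pmvk, which were lower. None of these 3 passed edgeR's test.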
